A study of Mus musculus with 4 samples.

Results

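The 10 genes described here, Dcstamp, Ocstamp, Atp6v0d2, Nfatc1, Oscar, Calcr, Itgb3, Ctsk, Acp5 and Mmp9, are genes of osteoclast differentiation and bone resorption. They were chosen by gene symbol, and each of the 10 matched 1 of the 32285 genes measured in single cells of callus and trabecular bone. Their levels are given for every class of cells in both tissues, and then with glucocorticoid (GC) set against control.

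The study asked how excess GC alters bone turnover and which cells of the skeletal environment take part. It holds 4 single-cell RNA-Seq libraries from 20-week-old male C57BL/6J mice sampled at week 2: each tissue was taken from mice given placebo (control) and from mice given prednisolone at 6.25 mg/kg/d (GC). Callus is the tissue that bridges a fracture, and trabecular bone is the spongy bone of the marrow space. The labels describe slow-release pellets under the skin for all libraries, whereas the methods describe daily injection for the fracture model, and neither gives the number of mice pooled in a library. Flushed marrow and crushed, enzyme-digested bone were combined and passed through a strainer before droplets were made. There is 1 library for each tissue and condition. No test between conditions was therefore possible, no replicate error can be given, and every interval is a 95% interval for counting error only.

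Osteoclasts are giant cells that dissolve bone. They form when precursors of the monocyte and macrophage lineage receive Csf1 and RANK ligand (Tnfsf11) and fuse with each other. RANK signaling, with costimulation through receptors such as Oscar, induces the transcription factor Nfatc1, which switches on the genes of cell fusion, attachment, acid secretion and matrix degradation. In a healing fracture these cells arrive as cartilage is replaced by bone, and cells of the same kind remove its mineralized matrix.

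The files hold counts of unique molecular identifiers (UMIs), each of which marks 1 captured RNA molecule. After filtering there were 3832 to 6890 cells in a library with median depths of 3288 to 6320.5 UMIs. The control callus library held 80686000 UMIs in 6714 cells and the GC callus library 56123831 in 6890. Pairs of libraries shared 7 to 15 called barcodes. The GC callus matrix listed only 7762 called barcodes, so the RNA of its empty droplets could not be measured. In empty droplets of control callus, Ctsk stood at 303 counts for each 1000000 UMIs (CPM), Nfatc1 at 266, Acp5 at 106 and Mmp9 at 105, and in those of trabecular bone Mmp9 stood at 701 (control) and 339.8 (GC). Free RNA of these genes was thus present in the droplets, and a low level in a class can be background.

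Callus held a small class of osteoclast-like cells. They numbered 77 of 6714 cells in control (1.15%, interval 0.906% to 1.43%) and 101 of 6890 in GC (1.47%, 1.20% to 1.78%). The class was named from 12 other osteoclast genes, with the 10 genes left out of the clustering. All 12 naming genes were detected in both libraries, among them Slc9b2, an ion exchanger, at 224 CPM in control and 266 in GC, against 0.911 and 1.82 in all other cells. The naming chose clusters high in such genes, so this contrast does not test the name. The share depended on the filter for mitochondrial RNA. Mitochondrial genes gave a median of 4.17% of the UMIs of osteoclast-like cells in control and 4.75% in GC, and at a limit of 5% the shares were 0.680% and 0.639%. With cells called by the UMI cutoff alone, the control share was 2.61%. This setting could not change which GC cells were called, because that matrix listed called barcodes only. Cells of the callus libraries were thus not called by the same rule. In trabecular bone no cluster was named osteoclast-like in either library. Monocyte or macrophage clusters there passed up to 6 of the 12 naming genes, but other classes led in them.

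The osteoclast-like cells lay in 3 clusters. Cluster 73 held cells of both libraries (22 control, 17 GC), whereas the remaining control cells lay in cluster 71 (55 control, 5 GC) and the remaining GC cells in cluster 15 (79, all GC). A further pair of clusters carried osteoclast markers together with those of another class and was kept apart. Cluster 72 (33 control, 11 GC) passed 6 macrophage markers, against 3 in cluster 73 and 4 each in clusters 15 and 71. The summed level of these markers did not set it apart from cluster 73. It was 1038 CPM in control and 986 in GC, against 1038 and 1186 in cluster 73. The cell cycle gene Mki67 stood at 250.2 CPM in control cells of cluster 72. In its GC cells Mki67 stood at 20.99 CPM, below the 58.1 of cluster 15. Cluster 44 (87 GC cells, no control cell) also carried cartilage collagen Col2a1 at 45452 CPM. RNA of other classes was present in the osteoclast-like cells too. All 9 chondrocyte markers were detected in both libraries, at a summed 4014 CPM in control and 678 in GC, and 5 of 7 erythroid markers at 48.8 and 321 CPM. Macrophage markers (7 of 8 detected, C1q genes included in the list) summed to 783 and 745 CPM. The part of this RNA in the values that follow was not tested.

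The regions upstream of Ctsk, Oscar and Acp5 are shown because these genes share the same class of cells. Windows were taken from the RefSeq promoter table (GRCm38.p6) for 4 of the 10 genes. Whether it also holds the other genes is not given here. The windows shown are those that overlap no annotated exon of their own gene. Exons of other genes were not checked. Each gives the 250 bases before a transcription start on the strand of the gene, 5′ to 3′. Capitals mark matches, on either strand, to GGAAA (the core of an NFAT site), TGANTCA (AP-1) or CANNTG (E-box).
Ctsk, chr3:95498960-95499209, plus strand: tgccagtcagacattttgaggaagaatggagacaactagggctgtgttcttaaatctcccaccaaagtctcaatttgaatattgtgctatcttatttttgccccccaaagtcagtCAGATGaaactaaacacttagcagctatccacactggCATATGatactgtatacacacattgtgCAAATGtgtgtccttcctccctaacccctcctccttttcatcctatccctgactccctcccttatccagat
Oscar, chr7:3616158-3616407, minus strand: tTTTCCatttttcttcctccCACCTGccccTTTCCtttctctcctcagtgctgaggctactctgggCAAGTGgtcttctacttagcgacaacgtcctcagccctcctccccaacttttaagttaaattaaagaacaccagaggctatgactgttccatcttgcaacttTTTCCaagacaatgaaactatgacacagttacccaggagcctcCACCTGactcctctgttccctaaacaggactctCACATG
Acp5, upstream start, chr9:22135747-22135996, minus strand: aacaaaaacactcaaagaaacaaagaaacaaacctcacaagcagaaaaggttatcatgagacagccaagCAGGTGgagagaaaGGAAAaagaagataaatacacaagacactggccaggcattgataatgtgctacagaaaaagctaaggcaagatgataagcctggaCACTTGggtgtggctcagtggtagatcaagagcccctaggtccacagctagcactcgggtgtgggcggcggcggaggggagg
Acp5, inner start, chr9:22131866-22132115, minus strand: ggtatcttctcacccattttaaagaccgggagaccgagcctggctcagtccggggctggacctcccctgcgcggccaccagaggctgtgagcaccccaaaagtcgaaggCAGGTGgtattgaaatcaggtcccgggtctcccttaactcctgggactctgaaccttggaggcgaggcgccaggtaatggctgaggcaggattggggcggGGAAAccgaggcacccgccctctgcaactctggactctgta
GGAAA occurred 3 times in the Oscar window, once in each Acp5 window and not in the Ctsk window, and was found in 55.6% of 32851 windows of the same length. CANNTG occurred 4 times upstream of Oscar, 3 times upstream of Ctsk and 2 and 1 times upstream of the Acp5 starts, against 66.2% of windows with at least 1. TGANTCA, present in 6.75% of windows, was in none of the windows shown. These are matches of letters and not binding sites.

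Of the 10 genes, 8 had their highest level in osteoclast-like cells in both callus libraries (Dcstamp, Ocstamp, Atp6v0d2, Oscar, Calcr, Ctsk, Acp5 and Mmp9). For Calcr this rested on 5 and 8 UMIs, and its intervals overlapped those of other classes. The same 8 drew more than 50% of their callus UMIs from this class, which made up 1.15% and 1.47% of the cells. With the limit on mitochondrial UMIs at 5%, only 2 genes did so in both libraries. Nfatc1 and Itgb3 were spread over many classes. For both of them, most UMIs came from chondrocyte-like and hypertrophic chondrocyte-like cells, the cartilage cells of the callus.

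**Figure D1:**
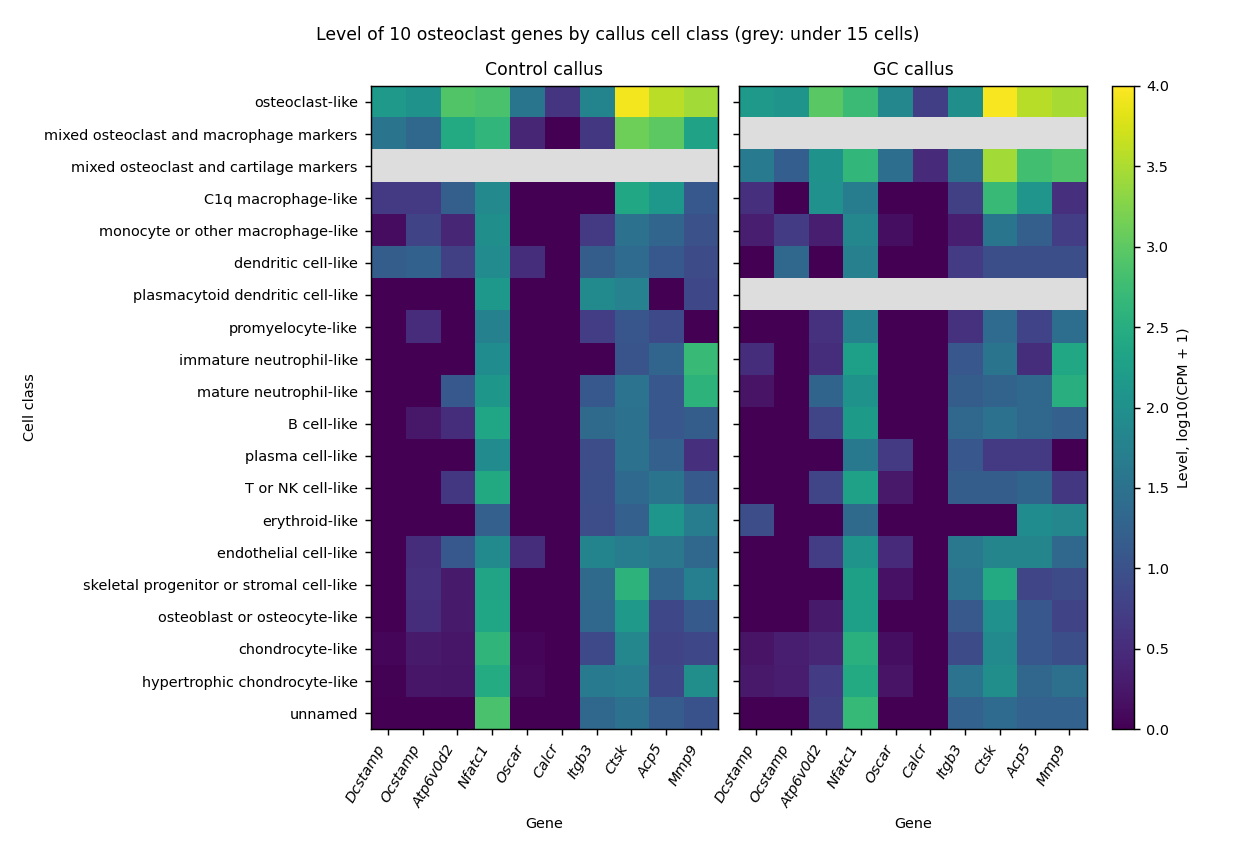
Level of each gene in each callus class with at least 15 cells, as log10(CPM + 1), in control and GC. The osteoclast-like class at the top holds the brightest cells of Ctsk (8595 CPM in control, 9218 in GC), while Nfatc1 is above 10 CPM in every class drawn.

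**Figure D2:**
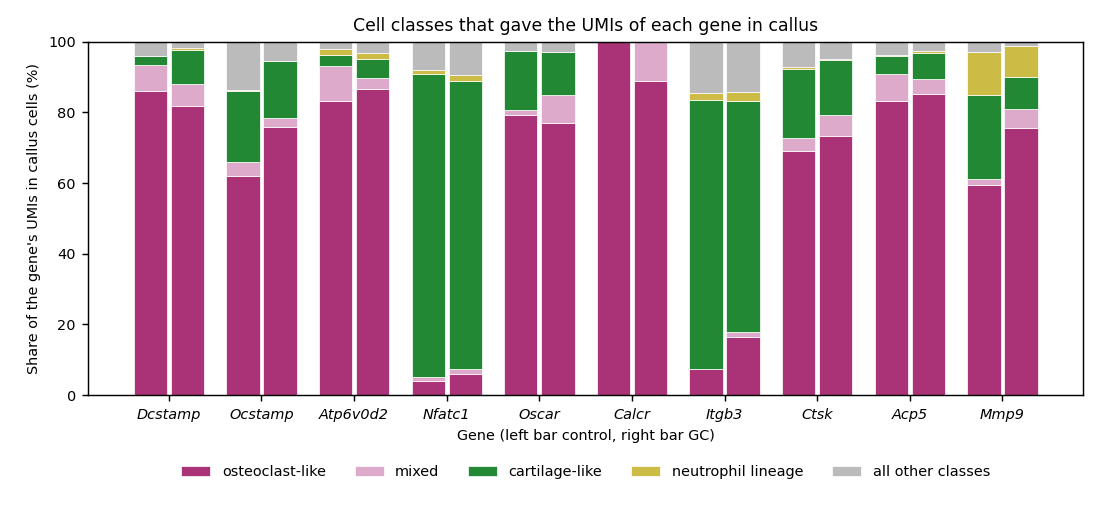
Share of each gene's UMIs in callus cells that came from osteoclast-like cells, from the 2 mixed classes, from cartilage-like classes, from the neutrophil lineage and from all other classes, with control on the left and GC on the right of each pair. The osteoclast-like part is over 50% in both bars of 8 genes and under 20% in both bars of Nfatc1 and Itgb3.

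Dcstamp and Ocstamp encode membrane proteins needed for the fusion of osteoclast precursors. Here and for the other genes, positions span the whole gene in build GRCm38. Dcstamp (ENSMUSG00000022303, chr15:39745930-39760938, plus strand) stood at 142 CPM in osteoclast-like cells of control (125 to 162) and at 144 in GC (127 to 163). The next class was a mixed one in each library, at 34.0 CPM in control and 41.5 in GC, and neither interval reached the osteoclast-like level. In 12 of 19 control classes and 9 of 18 GC classes no Dcstamp UMI was found. Ocstamp (ENSMUSG00000027670, chr2:165393760-165400405, minus strand) stood at 107 CPM (91.5 to 124) and 116 (101 to 133), followed by 20.4 CPM in the mixed osteoclast and macrophage class of control and 20.7 in dendritic cell-like cells of GC. Both fusion genes were therefore highest in the osteoclast-like class, with no overlap to the next class. Ocstamp UMIs were also counted in chondrocyte-like cells, at 0.959 CPM in control and 1.16 in GC. Because that class was large, it held 15.7% of all Ocstamp UMIs in control callus and 10.5% in GC callus.

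Atp6v0d2 encodes a subunit of the membrane part of the proton pump and also takes part in fusion. The gene (ENSMUSG00000028238, chr4:19876841-19922605, minus strand) stood at 809 CPM in osteoclast-like cells of control (766 to 853) and 944 in GC (900.1 to 990.4). In control the mixed osteoclast and macrophage class followed at 276 CPM, and in GC the mixed osteoclast and cartilage class at 108. C1q macrophage-like cells of GC held 103 CPM (74.9 to 139), an interval that overlapped that of the mixed class, whereas those of control held 15.2 CPM (8 UMIs). Osteoclast-like cells gave 83.1% of all Atp6v0d2 UMIs in control callus and 86.5% in GC callus.

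Nfatc1 encodes the transcription factor at the center of the osteoclast program and is also used by lymphocytes and other cells. The gene (ENSMUSG00000033016, chr18:80606205-80713071, minus strand) stood at 704 CPM in osteoclast-like cells of control (665 to 746) and at 527 in GC (494 to 562). An unnamed class led by Ccl5, Il2rb and Gzma stood beside it at 706 CPM (629.5 to 789.9) in control against 469 (406 to 539.9) in GC. In both libraries these intervals overlapped, so the order of the 2 classes was not resolved. Chondrocyte-like cells followed among the large classes at 413 and 343 CPM and gave 68.7% and 53.7% of all Nfatc1 UMIs. Osteoclast-like cells gave only 4.15% and 5.94%. No callus class was without Nfatc1 UMIs, and B cell-like cells stood at 225 CPM in control and 152 in GC. Nfatc1 overlaps an antisense gene, AC123818.1, on the opposite strand. Whether the counting used strand is not given in the sources used here, and reads of the pair cannot be told apart without it.

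Oscar, Calcr and Itgb3 are surface receptors of the osteoclast. Oscar, a collagen receptor that costimulates RANK signaling (ENSMUSG00000054594, chr7:3609813-3616157, minus strand), stood at 34.3 CPM in osteoclast-like cells of control (57 UMIs, 26.0 to 44.5) and 70.5 in GC (127 UMIs, 58.8 to 83.9). Every other control class held at most 2.37 CPM, and in GC the mixed osteoclast and cartilage class held 27.0 CPM. Oscar was thus nearly absent outside the osteoclast-like and mixed classes. Calcr, the calcitonin receptor (ENSMUSG00000023964, chr6:3685680-3764714, minus strand), had 5 UMIs in control callus cells, all in osteoclast-like cells. In GC callus it had 9 UMIs, of which 8 were in osteoclast-like cells. These give 3.01 CPM (0.978 to 7.03) and 4.44 CPM (1.92 to 8.75). Both intervals overlapped those of other classes. At this depth the order of the classes was therefore not resolved for Calcr, and the conditions could not be compared.

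Itgb3 encodes the beta subunit of the integrin with which osteoclasts attach to bone, and it is known from platelets and endothelium as well. The gene (ENSMUSG00000020689, chr11:104608000-104670476, plus strand) stood at 62.7 CPM in osteoclast-like cells of control (51.2 to 75.9) and 98.3 in GC (84.3 to 114). In control, plasmacytoid dendritic cell-like cells were above them at 77.5 CPM, but on 12 UMIs in 34 cells (40.1 to 135). Endothelial cell-like cells stood at 63.5 CPM in control (41.9 to 92.4). The first 3 classes of control were thus not separated by their intervals. Hypertrophic chondrocyte-like cells held 45.6 CPM in control and 32.5 in GC, and gave 53.7% and 48.3% of all Itgb3 UMIs.

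Ctsk encodes cathepsin K, the main collagen-degrading protease of osteoclasts. The gene (ENSMUSG00000028111, chr3:95499256-95509362, plus strand) stood at 8595 CPM in osteoclast-like cells of control (8455 to 8738) and 9218 in GC (9079 to 9360). The mixed classes followed, with 1297 CPM in the osteoclast and macrophage class of control and 2773 in the osteoclast and cartilage class of GC. Skeletal progenitor or stromal cell-like cells were at 387 CPM (360.4 to 414) in control against 277 (253 to 303) in GC. C1q macrophage-like cells stood at 245 CPM in control and 519.9 in GC. All of these lay far below the osteoclast-like level, and the control macrophage-like level was below that of the empty droplets (303 CPM). Osteoclast-like cells gave 68.9% of the Ctsk UMIs in control and 73.4% in GC, and chondrocyte-like cells 15.8% and 8.79%. B cell-like cells, which should lack the gene, held 31.1 and 30.8 CPM.

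Acp5 encodes tartrate-resistant acid phosphatase, the classical stain for osteoclasts. The gene (ENSMUSG00000001348, chr9:22126727-22135711, minus strand) stood at 3812 CPM in osteoclast-like cells of control (3719 to 3907) and 3733 in GC (3644 to 3823). The mixed classes followed at 982 and 607 CPM, with C1q macrophage-like cells next, at 133 CPM (104 to 168) in control against 123 (91.4 to 161) in GC. The macrophage-like values overlapped between the libraries, and so did those of osteoclast-like cells. Acp5 overlaps 6530413G14Rik on the opposite strand, and the remark on strand for Nfatc1 holds here as well.

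Mmp9 encodes gelatinase B, a protease that osteoclasts secrete and that neutrophils store in granules. The gene (ENSMUSG00000017737, chr2:164940780-164955850, plus strand) stood at 2781 CPM in osteoclast-like cells of control (2701 to 2862) and 3023 in GC (2943 to 3104). Immature neutrophil-like cells of control followed at 518 CPM, and in GC the mixed osteoclast and cartilage class at 791. Mature neutrophil-like cells, a far larger class, stood at 379 CPM (354 to 404) in control against 319 (292 to 348) in GC. Osteoclast-like cells gave 59.6% of the Mmp9 UMIs of control callus and 75.6% of those of GC callus. Hypertrophic chondrocyte-like cells gave 20.0% in control, of which 53.1% lay in a single cell, and 6.34% in GC.

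In trabecular bone, Mmp9 was a gene of the neutrophil lineage. Its level differed by stage, with 8 promyelocyte-like clusters at 7.74 to 70.8 CPM, 15 immature clusters at 26.7 to 2859.7 CPM and 14 mature clusters at 753 to 2399 CPM. The lowest immature clusters thus lay among the promyelocyte-like ones and the highest above every mature one. In callus, where the lineage had fewer clusters, the 6 mature clusters ranged from 266 to 798 CPM, and all but the highest of them lay below the trabecular range. Immature neutrophil-like cells gave 54.8% of the Mmp9 UMIs of control trabecular bone and 62.6% of those of GC, and mature ones 42.8% and 30.5%.

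**Figure D3:**
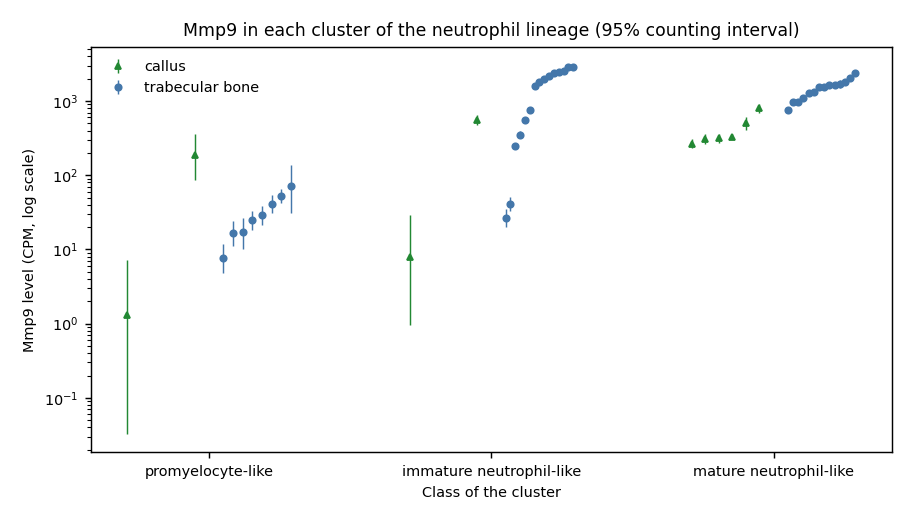
Mmp9 level in each cluster of promyelocyte-like, immature neutrophil-like and mature neutrophil-like cells, with the 95% counting interval, for callus (triangles) and trabecular bone (circles), on a log axis. In trabecular bone the promyelocyte-like clusters lie at or below 70.8 CPM and the mature ones at or above 753 CPM.

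The other 9 genes gave fewer UMIs in trabecular bone, where no cells were named osteoclast-like. Nfatc1 had 910 UMIs in control and 1057 in GC, Acp5 511 and 714, and Itgb3 297 and 307. In the cells kept, Oscar and Calcr had 0 UMIs in both libraries. The limit that a count of 0 allows, 3 UMIs, is 0.0874 CPM over control cells and 0.0795 over GC cells. Over all barcodes, called or not, Oscar had 1 UMI in each library and Calcr 0. In the cells kept, Dcstamp had 0 UMIs in control and 8 in GC, Ocstamp 29 and 20, Atp6v0d2 19 and 2, and Ctsk 42 and 26. The UMIs of the sparse genes had few sources. Of the Atp6v0d2 UMIs of control, 84.2% came from a single monocyte-like cell. Ocstamp UMIs lay mainly in monocyte or other macrophage-like cells (89.7% and 85.0%), and Ctsk UMIs mainly in skeletal progenitor or stromal cell-like cells (78.6% and 73.1%). Acp5 was highest in erythroid-like cells of control (84.1 CPM) and in T or NK cell-like cells of GC (157 CPM). Nfatc1 was highest in T or NK cell-like cells of control (144 CPM) and in the 16 B cell-like cells of GC (160.4 CPM on 8 UMIs), and Itgb3 in megakaryocyte-like cells of both libraries (42.9 CPM on 13 UMIs, 29.4 on 10), the platelet-forming lineage. For these 3 genes the interval of the first class overlapped that of the next in both libraries, so their order was not resolved.

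To read the genes cell by cell, each cell was thinned to 5000 UMIs, which left 71 osteoclast-like cells of control and 95 of GC (6 left out of each). The median osteoclast-like cell then held UMIs of 6 of the 10 genes in control (interval 5 to 7) and of 5 in GC (5 to 6). At least 5 genes were present in 88.7% of the control cells (79.0% to 95%) and 73.7% of the GC cells (63.6% to 82.2%). The GC share was the lower one, and the intervals overlapped. No C1q macrophage-like cell reached 5 genes (0 of 48 and 0 of 40), and their median was 1. Callus clusters of this class passed 8 and 9 of the 12 genes that named the osteoclast-like class.

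**Figure D4:**
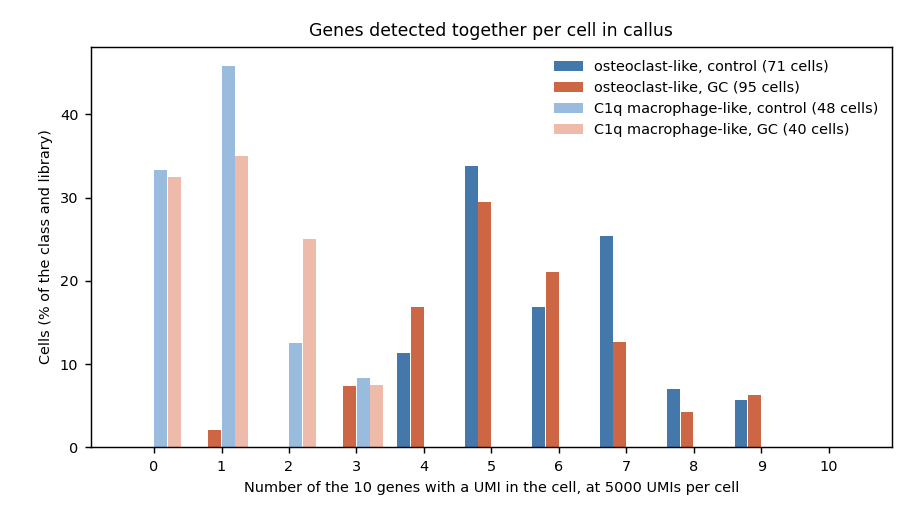
Share of cells with UMIs of 0 to 10 of the genes, after thinning to 5000 UMIs a cell, for osteoclast-like and C1q macrophage-like cells of control and GC callus. Osteoclast-like cells lie at 4 to 9 genes in control and 1 to 9 in GC, and C1q macrophage-like cells at 0 to 3.

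At 5000 UMIs, Ctsk was found in 71 of 71 control and 86 of 95 GC osteoclast-like cells, with 1, 40 and 107 UMIs as the lowest, median and highest of control and 0, 40 and 168 in GC. Acp5 was found in 71 of 71 and 94 of 95 cells, with 3, 15 and 107 UMIs in control and 0, 15 and 73 in GC. Both genes therefore varied widely among cells of a class around equal medians. Mmp9 was found in 88.7% and 76.8% of the cells, Atp6v0d2 in 94.4% and 95.8%, and Nfatc1 in 90.1% and 85.3%. The sparser genes were found in fewer cells, with Dcstamp in 43.7% and 34.7%, Ocstamp in 38.0% and 26.3%, Itgb3 in 28.2% and 22.1%, and Oscar in 14.1% and 12.6%.

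To set these shares against cells that should lack the genes, cells were also thinned to 1000 UMIs. Ctsk was then found in 97.4% of control and 87.1% of GC osteoclast-like cells (100% and 96.0% before thinning, at median depths of 21296 and 17236 UMIs), and in 4.24% and 2.00% of B cell-like cells (5.63% and 2.80% before thinning, at 1918.5 and 1681 UMIs). Acp5 was found in 93.5% and 84.2% of osteoclast-like cells against 0.849% and 1.71% of B cell-like cells. Nfatc1 was found in 35.1% and 39.6% against 17.5% and 10.9%. The enzyme genes thus stood far above the B cell-like share, whereas Nfatc1 was frequent in both classes. Oscar was found in 7.79% and 1.98%, and in 0 of 589 and 0 of 350 B cell-like cells.

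GC was next compared with control within the osteoclast-like class. Among the 9 genes with at least 50 UMIs over both libraries, none was past 2-fold on the log2(CPM + 5) scale, which understates the change of low genes, against a background of 2.18% of 6366 genes. On that scale 7 genes were above 0 and 2 below, with a median of 0.12. Of all 6366 genes tested, 3652 were above 0 and 2714 below, with a median of 0.07. Nfatc1 was lower in GC (527 against 704 CPM, ratio 0.748, 0.686 to 0.816). Oscar was higher (70.5 against 34.3 CPM, ratio 2.05, 1.49 to 2.86, log2 0.94), and so was Itgb3 (98.3 against 62.7 CPM, ratio 1.57, 1.22 to 2.02). Both rises lay in deep cells. In cells of at least 20000 UMIs, Oscar stood at 37.8 CPM in control and 116 in GC, and Itgb3 at 64.9 and 156. At 10000 to 20000 UMIs, Oscar stood at 19.3 and 18.7 CPM and Itgb3 at 48.3 and 41.1. Below 10000 UMIs both were lower in GC, on at most 7 UMIs in a library. The direction of Oscar held in all 17 alternative settings that gave it a value, and that of Nfatc1 in all 19. Oscar had too few UMIs for a value without cluster 73. Here and for the other genes, such counts include changes of pseudocount and UMI minimum, which cannot turn a direction. Itgb3 was lower in GC in 2 of 19, at a log2 ratio of -1.15 with the limit on mitochondrial UMIs at 5% and of -0.40 without cluster 73.

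The fusion and enzyme genes lay closer to 1 in the osteoclast-like class. Dcstamp had a ratio of 1.02 (0.848 to 1.22), Ocstamp 1.09 (0.886 to 1.34) and Atp6v0d2 1.17 (1.09 to 1.26). Ctsk had a ratio of 1.07 (1.05 to 1.10), Acp5 0.979 (0.946 to 1.01) and Mmp9 1.09 (1.05 to 1.13). Intervals of Ctsk, Mmp9 and Atp6v0d2 were off 1, but they cover counting error and not the spread between mice. Of these, Atp6v0d2 kept its direction in all 19 alternative settings, whereas Ctsk (log2 ratio -0.11 to 0.59) and Mmp9 (-0.41 to 0.70) kept theirs in 16 each. Dcstamp kept its direction in 13, Ocstamp in 16 and Acp5 in 14, so no direction can be given for these genes. The class also differed in its clusters, since most control cells lay in cluster 71 and most GC cells in cluster 15.

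**Figure D5:**
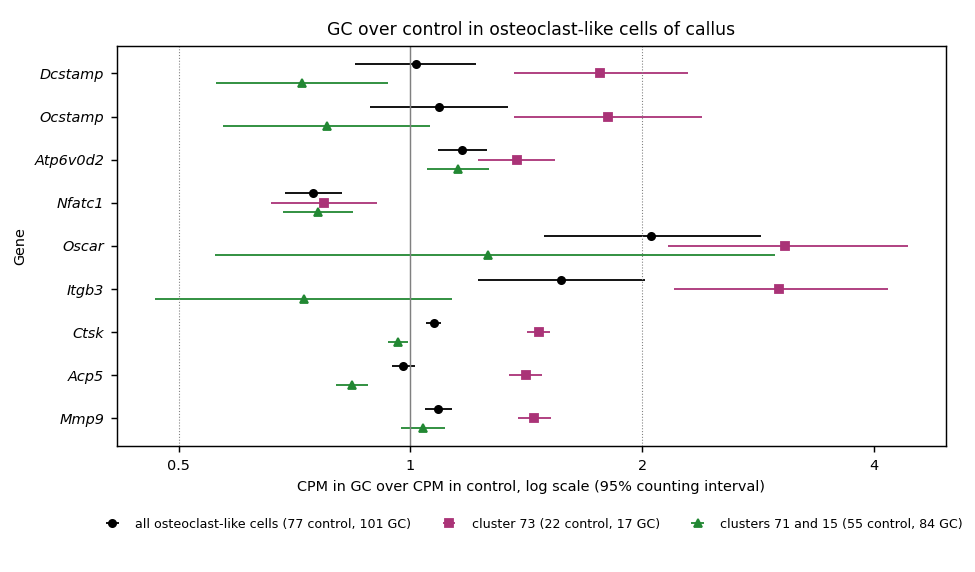
Ratio of CPM in GC over control for 9 genes, with 95% counting intervals, on a log axis, in all osteoclast-like cells, in cluster 73 and in the other osteoclast clusters (71 and 15). Oscar stands at 2.05 in all osteoclast-like cells, at 3.07 in cluster 73 and at 1.26 in the others, and Nfatc1 lies between 0.748 and 0.773 in all 3.

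The levels differed between the osteoclast clusters, and so did the ratios. Cluster 73, the only one with more than 5 cells of each library, held the highest levels of all 10 genes in both libraries. Oscar stood at 87.8 CPM in its 22 control cells and at 269.6 in its 17 GC cells (ratio 3.07, 2.16 to 4.43), and Itgb3 at 111 and 333 CPM (3.01, 2.20 to 4.17). These receptors were not carried by a single cell: without the cell with most UMIs in each library, Oscar was at 72.4 and 237 CPM and Itgb3 at 99.9 and 281. Dcstamp stood at 199 and 351 CPM (1.77), Ocstamp at 170 and 306 (1.80), Ctsk at 12283 and 18018 (1.47), Acp5 at 5635 and 7954 (1.41) and Mmp9 at 5669 and 8211 (1.45). The 12 genes that named the class were higher there too, at a summed 4965 CPM in control and 7988 in GC. Nfatc1 went the other way, from 806 CPM in control to 623 in GC (0.773, 0.659 to 0.905). In cluster 73, 2 of 9 genes were past 2-fold, Oscar and Itgb3, against a background of 5.14% of 2800 genes.

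In the other osteoclast clusters the picture was different. Oscar stood at 9.68 CPM in 55 control cells and 12.2 in 84 GC cells (ratio 1.26, 0.557 to 2.98), and Itgb3 at 40.5 and 29.4 (0.727, 0.465 to 1.13). Dcstamp was lower in GC (0.723, 0.559 to 0.934), as were Acp5 (0.840, 0.801 to 0.881) and Nfatc1 (0.759, 0.683 to 0.842). Ctsk was at 0.963 and Mmp9 at 1.04. Here 0 of the 8 genes with at least 50 UMIs (Oscar had fewer) were past 2-fold, against a background of 2.82% of 5496 genes. Nfatc1 had nearly the same ratio in both sets of cells. The difference between the sets has no test. Cartilage RNA differed too, with summed chondrocyte markers of cluster 73 at 7652 CPM in control and 946 in GC.

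Over all callus cells, 8 of the 9 genes with at least 50 UMIs had a higher CPM in GC and Nfatc1 a lower one. The share of all genes with a higher CPM in GC is not given here. Each CPM is relative to the total of its library, 80686000 UMIs in control cells and 56123831 in GC cells. With the limit on mitochondrial UMIs at 5%, 4 of the 8 were below 0 on the log2 scale, Mmp9 (-0.31), Ocstamp (-0.06), Itgb3 (-0.02) and Dcstamp (-0.0061). Oscar stood at 0.892 CPM in control and 2.94 in GC (ratio 3.29, 2.48 to 4.41), Atp6v0d2 at 20.0 and 35.0 (1.75, 1.64 to 1.87), Dcstamp at 3.40 and 5.67 (1.67, 1.42 to 1.97) and Ctsk at 256 and 403 (1.57, 1.54 to 1.60). Acp5 had a ratio of 1.49, Ocstamp of 1.39 and Mmp9 of 1.34. Itgb3 stood at 17.5 and 19.2 CPM (1.09, 1.01 to 1.19), and Nfatc1 at 349 and 285 (0.815, 0.799 to 0.831). None of the 9 was past 2-fold on the log2(CPM + 5) scale, beside 0.563% of 15107 genes. In these sums the number of osteoclast-like cells and the RNA of each cell cannot be told apart, and osteoclast-like cells held 2.06% of all UMIs in control and 3.21% in GC.

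In the other classes of callus, 43 pairs of a gene and a class had at least 50 UMIs. Of these, 3 were past 2-fold higher in GC and 4 lower, beside 1.54% and 1.61% of all gene and class pairs tested. In C1q macrophage-like cells (71 in each library, background 4.47%), Ctsk stood at 245 CPM in control and 519.9 in GC (2.12, 1.70 to 2.66) and Atp6v0d2 at 15.2 and 103 (6.80, 3.16 to 16.7). Both genes were carried in part by few cells, since 57.4% and 43.5% of the Ctsk UMIs lay in 1 cell of each library. Without those cells Ctsk was at 107 and 304 CPM, and Atp6v0d2, treated the same way, at 11.7 and 72.0. Acp5 in the same cells did not follow (133 and 123 CPM).

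Mmp9 was past 2-fold lower in GC in 3 classes of callus. In hypertrophic chondrocyte-like cells (background 0.776%) it stood at 93.1 CPM in control and 28.6 in GC (0.307, 0.276 to 0.341). In skeletal progenitor or stromal cell-like cells (background 2.11%) it stood at 51.9 and 7.46 CPM (0.144, 0.0742 to 0.257), and in immature neutrophil-like cells (28 control, 143 GC, background 29.7%) at 518 and 251 (0.484, 0.346 to 0.685). Single cells weighed on all of these. Without the top cell of each library, Mmp9 was at 43.7 and 26.5 CPM in hypertrophic chondrocyte-like cells and at 426 and 239 in immature neutrophil-like cells, no longer past 2-fold, and at 17.9 and 4.61 in stromal cell-like cells. The immature neutrophil-like cells of callus lay in 2 unlike clusters. One, led by hemoglobin genes and carrying 9 chondrocyte markers, held 76 of the GC cells and 3 of the control cells, with Mmp9 at 7.99 CPM. In the other, Mmp9 stood at 579.8 CPM in 25 control cells and 541 in 67 GC cells (0.933, 0.666 to 1.32). Acp5 in stromal cell-like cells (19.2 and 5.74 CPM, 0.299, 0.133 to 0.608) was at 10.7 and 5.18 CPM without the top cell and then not past 2-fold either.

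Cartilage-like cells of GC callus fell into clusters that control callus hardly shared. Of 1880 chondrocyte-like GC cells, 917 lay in 4 clusters with 10 control cells, and of 1110 hypertrophic GC cells 313 lay in 3 clusters with 6 control cells. The 917 cells were shallow, with a median of 2167 UMIs against 22098 in the other 963. Ctsk stood at 402 CPM in the 917 cells and at 44.1 in the other GC chondrocyte-like cells, beside 69.4 in the control cells of the shared clusters. Acp5 stood at 83.2 CPM in the 917 and 3.37 in the others, beside 5.71 in control. Both genes were therefore higher in GC over all chondrocyte-like cells (ratios 1.14 and 1.97) and lower in the shared clusters (0.635 and 0.590). In hypertrophic chondrocyte-like cells, Acp5 went from 6.50 CPM in control to 19.6 in GC (3.02, 2.42 to 3.79), past 2-fold, and from 6.54 to 4.06 in the shared clusters. Mmp9 went from 84.2 to 10.9 CPM in the shared hypertrophic clusters (0.129, 0.107 to 0.154), with no cell left out, and stood at 83.5 in the 313 GC cells. A single control cell held 53.1% of the Mmp9 UMIs of all hypertrophic control cells. It lay in the shared clusters, which held 1391 of those UMIs against 156 in the others, so it weighed on this ratio. Nfatc1 hardly depended on the choice (0.831 and 0.825 in chondrocyte-like cells).

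Several of the genes were found together in a small share of cartilage-like cells of GC. After thinning to 1000 UMIs, UMIs of at least 2 of the 7 genes other than Mmp9, Nfatc1 and Itgb3 were found in 1 of 1725 chondrocyte-like cells of control (0.0580%) and 40 of 1756 of GC (2.28%, 1.63% to 3.09%). In hypertrophic chondrocyte-like cells the counts were 0 of 787 and 25 of 1053 (2.37%). Among osteoclast-like cells 76 of 77 and 84 of 101 did so, and in trabecular bone 1 of 3741 and 0 of 4506 of all cells. In the mixed osteoclast and cartilage class the count was 32 of 81. The part of free RNA and of droplets with more than 1 cell in these counts was not tested.

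GC was compared with control in trabecular bone over all cells first. Mmp9 stood at 826 CPM in control and 707 in GC (ratio 0.856, 0.842 to 0.870), Acp5 at 14.9 and 18.9 (1.27, 1.13 to 1.43), Nfatc1 at 26.5 and 28.0 (1.06, 0.966 to 1.16), Itgb3 at 8.65 and 8.14 (0.941, 0.799 to 1.11) and Ctsk at 1.22 and 0.689 (0.563, 0.332 to 0.940). None of these 5 was past 2-fold, against a background of 1.05% of 12151 genes. The lower Ctsk level in GC was that of the cells kept only. Over all barcodes, called or not, Ctsk had 64 of 41239842 UMIs in control and 74 of 45876714 in GC. Mmp9 differed by stage. It stood at 1902 CPM in mature neutrophil-like cells of control and 1271 in GC (0.668, 0.650 to 0.687), where the median gene had a log2 ratio of 0.34, and at 1338 and 1379.6 in immature neutrophil-like cells (1.03, 1.01 to 1.05). The mature cells of the libraries lay in different clusters, with 1307 of 1328 control cells in 5 clusters that held 30 GC cells and 1670 of 1711 GC cells in 8 clusters that held no control cell. The share of mature neutrophil-like cells with an Mmp9 UMI at 1000 UMIs was 81.9% in control and 63.7% in GC (97.5% and 90.2% before thinning), against 2.92% of 308 control B cell-like cells.

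By class, 21 pairs could be compared in trabecular bone, of which 4 were past 2-fold higher in GC and 3 lower, beside 2.7% and 5.44% of all pairs tested. Mmp9 in erythroid-like cells stood at 57.7 CPM in control and 288 in GC (4.99, 4.30 to 5.81), beside 339.8 CPM in the empty droplets of GC and a background of 13.5%. This class included a cluster led by neutrophil genes ahead of hemoglobin (8 control, 76 GC cells), where Mmp9 stood at 2093 and 2065 CPM. In the other erythroid-like clusters Mmp9 was lower in GC, at 34.3 CPM in 329 control cells and 21.8 in 559 GC cells (0.636, 0.478 to 0.843). In T or NK cell-like cells (55 control, 186 GC, background 5.58%) Acp5 stood at 60.8 and 157 CPM (2.58, 1.67 to 4.20) and Mmp9 at 119 and 34.4 (0.290, 0.189 to 0.446). The Acp5 value rested on many cells, with 3.07% of the GC UMIs in the top cell. Ctsk in skeletal progenitor or stromal cell-like cells stood at 264 CPM in control and 74.8 in GC (33 and 19 UMIs in 17 and 43 cells, 0.284, 0.152 to 0.514, background 16.8%). The remaining 3 pairs were Nfatc1, Acp5 and Mmp9 in B cell-like cells, of which GC held only 16 against 309, and there the background was 43.2%.

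The other genes of the pathway were taken from a list of 44. On this list, Tnfrsf11a, Tcirg1, Clcn7, Ostm1, Slc9b2, Jdp2, Atp6v1c1 and Siglec15 had also helped to name the osteoclast-like class. Their levels in it therefore depend on the naming. Csf1r was a naming marker of monocytes. In osteoclast-like cells, 37 of the 44 genes had at least 50 UMIs. Of these, 1 was past 2-fold higher in GC and 0 lower, beside 0.958% and 1.23% of all genes tested in these cells. On the log2 scale 22 were above 0 and 15 below, with a median of 0.08. Of all 6366 genes tested, 3652 were above 0 and 2714 below, with a median of 0.07. The gene past 2-fold was Myc, a growth regulator that is induced early in osteoclast formation, at 7.23 CPM in control (12 UMIs) and 33.3 in GC (60 UMIs, ratio 4.61, 2.45 to 9.41). Among the 9 transcription factors, Fos, a subunit of AP-1, stood at 333 CPM in control and 182 in GC (0.546, 0.475 to 0.627). Spi1 stood at 690 and 725 (1.05, 0.969 to 1.14) and Prdm1, which represses inhibitors of the program, at 122 and 176 (1.45, 1.21 to 1.73). Fos and Nfatc1 were both lower in GC, whereas Prdm1 was higher.

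Among the 7 receptors and adaptors, 3 were above 0 and 4 below. Beside this count and those that follow, 3652 of all 6366 genes tested were above 0. Tnfrsf11a, the receptor for RANK ligand, stood at 133 and 141 CPM (1.06, 0.881 to 1.27) and Csf1r, the receptor for Csf1, at 369 and 499 (1.35, 1.22 to 1.50). The adaptors Tyrobp, at 0.852 (0.802 to 0.906), and Fcer1g, through which Oscar signals, at 0.853 (0.790 to 0.920), were slightly lower. Of 12 acid secretion genes, 7 were above 0 and 5 below. Clcn7, a chloride transporter of the ruffled border, stood at 81.3 and 134 CPM (1.65, 1.33 to 2.05), and Tcirg1, a proton pump subunit, at 483 and 424 (0.879, 0.795 to 0.972). Of 8 attachment, fusion and ruffled border genes tested, 6 were above 0, among them Cd44 at 374 and 587 CPM (1.57, 1.42 to 1.73), while Itgav, the partner of Itgb3 in the integrin, stood at 516 and 529 (1.02, 0.934 to 1.13). None of the 4 ligands and decoys had enough UMIs.

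For each gene, the genes most like it were sought by Pearson correlation of log2(CPM + 5) over 37 class and library values of callus, among 15107 genes. The points share 2 libraries and their free RNA, and the values are a description only. Dcstamp was most like Slc9b2 (r = 0.953), Gpr83 and Cyp2s1, of which Slc9b2 had helped to name the osteoclast-like class. Oscar was most like Mst1r (0.950), Nyap2 and Mt3, Atp6v0d2 like Cyp2s1 (0.916), Bdh2 and Slc16a7, and Ocstamp like Bdh2 (0.899), 4833415N18Rik and Dcstamp. Acp5 was most like Slc9b2 (0.901), Atp6v0d2 and Bdh2, and Ctsk like Fam110b (0.913), Slc16a7 and Tmem26. Genes with wider use had weaker neighbors: Mmp9 was most like Rufy4 (0.769), Nfatc1 like Rnf170 (0.712) and Itgb3 like Spry1 (0.712). Calcr was under the minimum of 50 UMIs.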

How the data were processed

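Single-cell RNA-Seq was measured in 4 libraries, 1 for each tissue and condition. The authors deposited matrices of raw UMI counts per gene and barcode, made with Cell Ranger (version 4.0.0 in the matrix headers, 5.0.1 in the submitters' processing notes, which also name Seurat 3.2.0). The notes name the build mm10. Totals were 41239842 to 95852254 UMIs. The GC callus matrix held called barcodes only. In the others, cells were called by a UMI cutoff plus a test against empty droplets (candidates from 500 UMIs, 10000 simulations, false discovery rate 0.01). Cells with under 200 genes or over 10% mitochondrial UMIs were removed, and so were simulated-doublet calls (0.8% per 1000 cells, 125 to 428 per library).

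Cells of each tissue were clustered (2000 variable genes, 30 components, 15 neighbors, Leiden resolution 1), with the 10 genes and others, 45 in all, left out. Classes were named from 150 markers of 21 classes, with at least 3 markers at 2-fold and in 10% of cells, taking the class with most markers among the 10 leading genes. Clusters with at least 8 osteoclast markers could be called mixed where they also carried markers of another class. Not all such clusters were: C1q macrophage-like clusters 18 and 77 of callus passed 8 and 9 osteoclast markers and 8 macrophage markers each. Osteoclast-like clusters 15 and 71 carried 4 macrophage markers each. The rule was written with the clusters already known. The members and lists were chosen with earlier results of these data known. The genes named were the 10 members, the list of 44 pathway genes and the 3 most similar genes of each member.

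UMIs were summed per library and class, for classes with at least 15 cells. CPM intervals are exact Poisson, shares Clopper-Pearson and ratios exact conditional, all at 95%. Pairs with at least 50 UMIs were compared as log2(CPM + 5), which understates the change of low genes. A fold of 2 was a rule of size, not a test. Dendritic cell-like cells were not compared, because erythroid genes led 1 of their clusters. Gene positions are from GENCODE M21 (GRCm38), matched by Ensembl ID, and promoters from RefSeq. The alternatives comprised 19 planned and 6 chosen after seeing the data. The scripts were tested on simulated data. The work was done in Python 3.11.15. Clustering used leidenalg 0.10.2 on igraph 0.11.9 after scikit-learn 1.9.0, and simulations used numba 0.67.0. Tables and tests used pandas 2.3.3 and scipy 1.17.1 over numpy 2.4.6, and plots matplotlib 3.10.9.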

Additional observations from a re-analysis of the deposited data

Results flagged for a closer look

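For 16 pairs of a gene and a class (or all cells) compared in both tissues, the ratio of GC over control lay off 1 by its counting interval in opposite directions in 6. The share over all genes is not given here, so the count is not a result about these genes. The all-cell pairs also include the cells of the classes. None of these differences between tissues was tested, since each rests on 1 library for each tissue and condition. Nfatc1 in B cell-like cells had a ratio of 0.678 in callus and 4.01 in trabecular bone, where GC held 16 such cells and 8 UMIs. Nfatc1 in mature neutrophil-like cells had ratios of 0.819 and 1.35. Acp5 in T or NK cell-like cells had ratios of 0.554 in callus, on 29 and 22 UMIs, and 2.58 in trabecular bone. Mmp9 in immature neutrophil-like cells had ratios of 0.484 in callus, where control held 28 such cells, and 1.03 in trabecular bone. Of the callus cells, 76 of 143 in GC and 3 of 28 in control lay in a cluster led by hemoglobin genes, and the ratio in the other cluster was 0.933 (0.666 to 1.32). Over all cells, Ctsk had ratios of 1.57 and 0.563, the latter on 42 and 26 UMIs, and Mmp9 had ratios of 1.34 and 0.856. The trabecular Ctsk ratio held for the cells kept only. Over all barcodes of trabecular bone, Ctsk had 64 of 41239842 UMIs in control and 74 of 45876714 in GC.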

How the results depend on the processing

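The share of osteoclast-like cells depended on how cells were called, filtered and clustered. In control callus (1.15%) it was 2.61% with the UMI cutoff alone, 1.56% with doublets kept, 0.680% at no more than 5% mitochondrial UMIs and 1.64% with the mixed clusters counted. The UMI cutoff alone left the calling of GC callus cells as it was. In GC callus (1.47%) it was 0.639% at 5% mitochondrial UMIs, 1.07% with the 10 genes kept in the clustering, 0.914% with each library clustered alone and 2.89% with the mixed clusters counted. No gene was past 2-fold in osteoclast-like cells, against 1 with doublets kept, at 5% mitochondrial UMIs, at a pseudocount of 1 or with mixed clusters counted, and 2 with at least 500 genes a cell, the 10 genes kept in the clustering, each library clustered alone or the shared cluster only. Oscar was past 2-fold in 7 of these 8 settings and Itgb3 in 5, and Itgb3 was at a log2 ratio of -1.15 at 5% mitochondrial UMIs. Nfatc1 was below 0 in all 19 settings (-0.49 to -0.18), of which those on pseudocount and UMI minimum cannot turn a sign. Genes with over 50% of their UMIs in osteoclast-like cells numbered 8, and 2 at 5% mitochondrial UMIs. Thinned to 2000 UMIs in place of 5000, the GC median was 4 genes a cell. Thinned to 2000 UMIs in place of 1000, 9 genes in place of 5 were in at least 10% of the GC cells. Over all callus cells 1 gene, Oscar, was past 2-fold at a pseudocount of 1. The 7 pairs past 2-fold in other callus classes were 4 at a pseudocount of 20 and 21 with no UMI minimum, and the 7 of trabecular bone 14. Acp5 in hypertrophic chondrocyte-like cells turned to -0.35 without the cartilage clusters over 90% GC. Mmp9 in erythroid-like cells of trabecular bone turned to -0.55 without the cluster led by neutrophil genes, and in immature neutrophil-like cells of callus it was -0.10 without the cluster led by hemoglobin genes. The settings on mixed, shared, cartilage and these clusters, and on the top cell, were chosen after seeing the data. The cause of these shifts was not tested. No paired analysis was possible because each group holds 1 library.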
